A study of Mus musculus with 20 samples.

Results

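The lysosome, cathepsin and autophagy genes described here are 49 of the 25308 genes in the count table of the series. They were chosen by name: 50 symbols were listed, and every row of the table with a listed gene name was taken. The only symbol without a row was Limp2, which is another name of the listed Scarb2. Rows were matched by name alone, although the list of genes was chosen with earlier results of these data known. All 49 genes passed the filter on low counts, so that they stand among the 14477 genes tested.

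RNA from the heart apex was sequenced in 20 mice of 3 groups, all carrying the DH-LMP2A background (DH), whose plasma cells lack Ig heavy chains. The 9 AL mice were λS-DH mice, double homozygous for this background and for the gene of a human amyloidogenic λ light chain (λS) placed in the Ig kappa locus, and had amyloid deposits in the heart after induction. The study induced λS-DH mice by an intravenous injection of the variable domain of the light chain, as seeds or in soluble form, and which form each sequenced mouse received is not given in the sources used here. The 4 LS mice were λS-DH mice that had not been induced and had no deposits. The 7 Ctrl mice were DH mice without the λS gene, described as age-matched, and the age and sex of single mice are not given in the sources used here. Plasma cells drive the λS gene, so the light chain reaches the heart through the blood. AL against LS therefore compared induced hearts with deposits and hearts without either in mice of 1 genotype, AL against Ctrl added the transgene to this difference, and LS against Ctrl addressed the transgene alone. The apex is a mixture of cell types, and in bulk RNA fewer cells of a type and less RNA per cell cannot be told apart.

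Lysosomes are acidic organelles in which cathepsins and other hydrolases degrade proteins, glycans and lipids. The V-ATPase pumps protons into them, LAMP and LIMP proteins are main proteins of their membrane, and autophagosomes deliver cytoplasmic material to them. TFEB and TFE3 are transcription factors that switch on many genes of this system, and in cardiac muscle the turnover of mitochondria and sarcomeric proteins depends on it. Loss of LAMP2 or of the glycogen-degrading enzyme acid α-glucosidase causes cardiomyopathy in people.

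Total counts per mouse ranged from 7867642 to 62668146, and the lowest totals were those of the 5 mice in the second sequencing run, of which 2 were AL and 3 Ctrl mice. Sequencing run was therefore a term of the model, except in the alternatives that handled it otherwise. Levels are given as TMM-normalized CPM (counts scaled to library size). The floor of detection was 3 counts, which correspond to 0.0479 to 0.381 CPM of the total counts, before the TMM factors are applied. The 8 cardiomyocyte markers examined were above 0 in every mouse. Their summed level was 46894 to 75793 CPM in AL (median 54912), 62411 to 69355 CPM in LS (median 66482) and 59703 to 76637 CPM in Ctrl mice (median 66167). The AL median lay below every LS and every Ctrl mouse. A group of 5 mice stood apart by the liver gene Alb, which was 94.2 to 215 CPM in LS1, LS3, Ctrl1, Ctrl3 and Ctrl4 and at most 21.8 CPM in the other 15. AL9 also stood apart, with the highest summed macrophage and fibroblast markers of the AL mice and the lowest share of mitochondrial counts of all mice (18.3%).

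Levels of the 49 genes spanned more than 3 orders of magnitude per kilobase of exon. Ctsd, which encodes the aspartic protease cathepsin D, had the highest mean level over the 20 mice at 478 CPM per kilobase, followed by Psap (380), the precursor of the saposins that help degrade sphingolipids, and Cst3 (225), the secreted inhibitor cystatin C. Map1lc3a (155), the LC3A protein of autophagosome membranes, and Lamp1 (149), a main glycoprotein of the lysosomal membrane, came next. Among the cysteine cathepsins, Ctsb led with 76.4 CPM per kilobase, ahead of legumain (Lgmn, 31.7) and Ctsl (27.6). The transcription factors were low, with 2.8 CPM per kilobase for Tfeb and 1.38 for Tfe3. Ctsw, a cathepsin of cytotoxic lymphocytes, and Ctse were at the bottom, with 0.241 and 0.167 CPM per kilobase and 1 to 50 and 1 to 82 counts per mouse, which left them near the floor in several libraries.

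**Figure D1:**
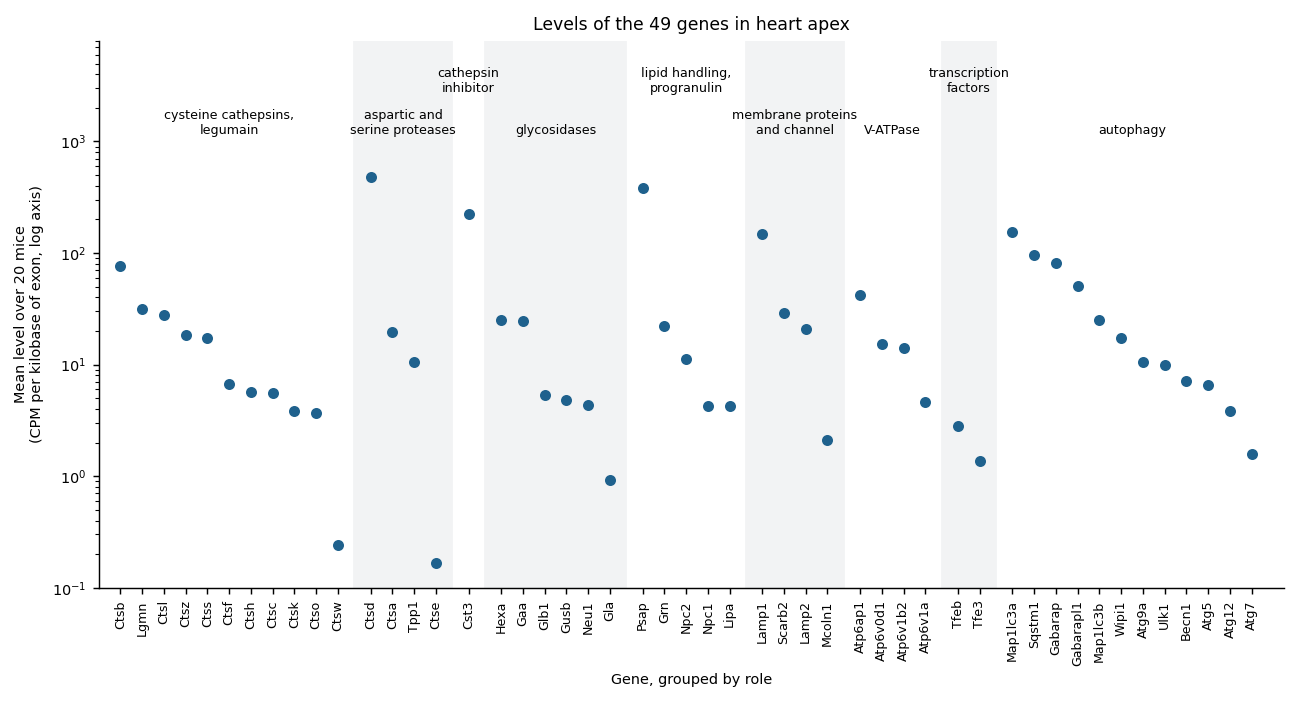
Mean level of each of the 49 genes over the 20 mice, in CPM per kilobase of exon on a log axis, with the genes grouped by role and ordered by level within each role. Ctsd (478), Psap (380) and Cst3 (225) are the highest, and Ctsw (0.241) and Ctse (0.167) the lowest.

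In AL hearts compared with Ctrl hearts, most changes of these genes were small and went up. At a false discovery rate (FDR, the Benjamini-Hochberg adjusted p of edgeR's quasi-likelihood test over all genes) under 0.05, 17 of the 49 genes were higher in AL mice, which is 34.7%, against 10.7% of all tested genes. On the lower side were 5 of 49 genes (10.2%), against 15.4% of all tested genes. With the additional requirement of an absolute log2 fold change (log2FC) of at least 0.58, only 3 of the 49 genes were called, which is 6.12% and close to the 7.81% of all tested genes. These were Ctsz and Map1lc3a, which rose, and Scarb2, which fell. The median log2FC was 0.18 over the 49 genes and 0.013 over all tested genes, and 35 of the 49 values were above 0.

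AL against LS, which shares the AL mice with the preceding comparison, gave 11 genes higher in AL at an FDR under 0.05 (22.4%, against 9.78% of all tested genes) and 3 lower (6.12%, against 13.6%). The larger threshold was passed by 2 of the 49 genes, Ctsz and Scarb2 (4.08%, against 8.9% of all tested genes). The median log2FC was 0.12 over the 49 genes and 0.011 over all tested genes, with 32 of the 49 values above 0.

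How many genes passed the FDR depended on the mice and on how the run was handled. When counts were first adjusted for the run with ComBat-seq, the approach of the study, 2 of the 49 genes had an FDR under 0.05 in each comparison, Ctsz and Scarb2 in both, while the share of all tested genes fell to 5.35% for AL against Ctrl and 4.42% for AL against LS. Without the 5 mice of highest Alb, 10 of the 49 genes passed against Ctrl (6.63% of all tested genes) and 2 against LS (5.23%). Without these 5 mice and AL9, 2 of the 49 genes passed against Ctrl (1.71% of all tested genes) and 7 against LS (11.2%). With 1 mouse left out, 9, 9, 8 and 6 genes passed against LS when that mouse was LS1, LS2, LS3 or LS4, beside 16.7%, 15.4%, 16% and 16% of all tested genes, and without AL9 the genes called against Ctrl at the larger threshold were 1 in place of 3.

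**Figure D2:**
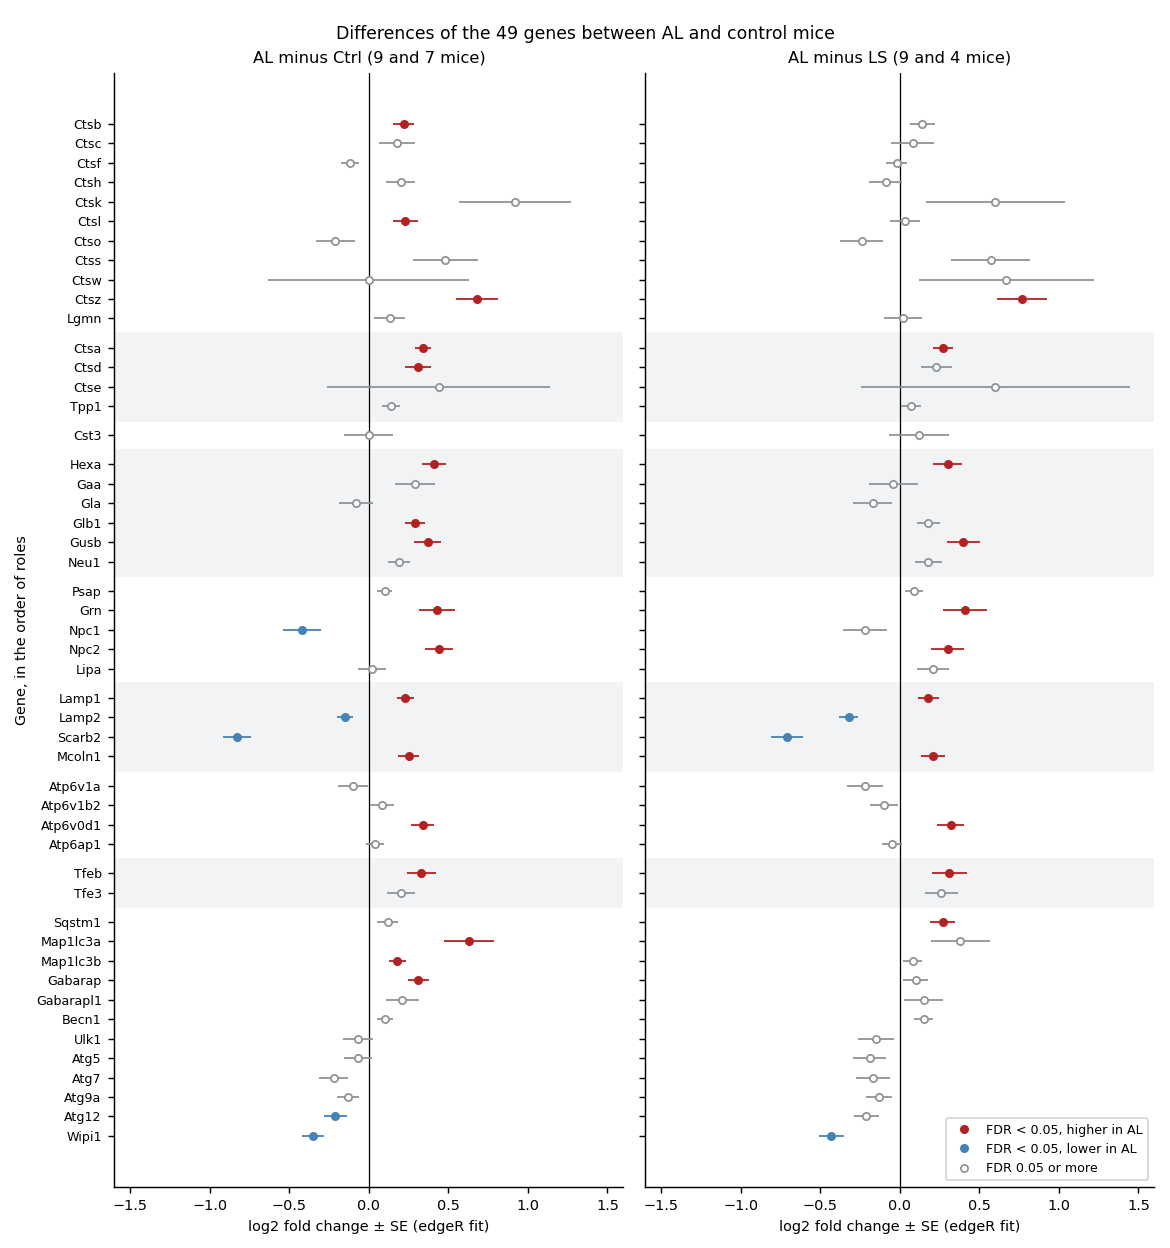
Log2 fold change (points) with its standard error (bars) of each of the 49 genes, for AL minus Ctrl on the left and AL minus LS on the right, in the order of their roles. Filled red points mark the 17 and 11 genes higher in AL at an FDR under 0.05, filled blue points the 5 and 3 genes lower in AL, and open points the rest. Scarb2 lies furthest to the left in both panels.

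The largest fall was that of Scarb2, which encodes LIMP-2, a lysosomal membrane protein that carries β-glucocerebrosidase to the lysosome. The gene lies on chr5:92441314-92506833 (GRCm38, minus strand). Scarb2 was 115 CPM in the lowest, 129 CPM in the median and 146 CPM in the highest AL mouse, 258, 226, 208 and 215 CPM in LS1 to LS4, and 157, 219 and 295 CPM in the lowest, median and highest Ctrl mouse. All 9 AL mice lay below every LS and every Ctrl mouse. The log2FC was -0.83 (SE 0.0863, FDR 2.84e-05) against Ctrl and -0.71 (SE 0.102, FDR 0.000399) against LS. Without AL9 and the 5 mice of highest Alb these values were -0.86 (FDR 0.00826) and -0.68 (FDR 0.0121). The difference from LS kept an FDR under 0.05 in all 14 other settings and in all 20 fits that left out 1 mouse. The difference from Ctrl did so in all but the fit of the second run alone.

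The other membrane proteins moved in both directions. Lamp2, the second main glycoprotein of the lysosomal membrane, was 109, 204 and 220 CPM in the lowest, median and highest AL mouse, 252, 262, 247 and 246 CPM in LS1 to LS4, and 130, 215 and 232 CPM in the lowest, median and highest Ctrl mouse. All 9 AL mice lay below every LS mouse, while AL and Ctrl mice overlapped, and the second run was low in both (109 and 130 CPM in AL8 and AL9, 130 to 144 CPM in Ctrl5 to Ctrl7). The log2FC was -0.32 against LS (SE 0.0596, FDR 0.00146) and -0.15 against Ctrl (SE 0.051, FDR 0.036). The difference from Ctrl kept an FDR under 0.05 in only 2 of 15 other settings and was -0.01 with no run term (FDR 0.976), -0.15 with ComBat-seq (FDR 0.652) and -0.13 in the first run alone (FDR 0.0998). It also lost it without AL8, Ctrl1, Ctrl2, Ctrl3 or Ctrl6, with a highest FDR of 0.0826. The difference from LS was -0.35 with ComBat-seq (FDR 0.295), -0.45 with no run term (FDR 0.091) and -0.31 without the 5 mice of highest Alb (FDR 0.0656).

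Lamp1 was 381, 438 and 472 CPM in the lowest, median and highest AL mouse, 379, 396, 382 and 380 CPM in LS1 to LS4, and 322, 368 and 392 CPM in the lowest, median and highest Ctrl mouse. In 8 of 9 AL mice it was above every LS and every Ctrl mouse, and AL9 was the exception. The log2FC was 0.23 against Ctrl (SE 0.0549, FDR 0.00484) and 0.18 against LS (SE 0.0646, FDR 0.0482), and the latter kept an FDR under 0.05 in only 7 of the 20 fits that left out 1 mouse (highest FDR 0.134, without LS1). Mcoln1, the calcium channel TRPML1 of the lysosome, had a log2FC of 0.25 against Ctrl (FDR 0.00778) and 0.21 against LS (FDR 0.0497).

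Of the 11 cysteine cathepsins and legumain, 3 rose against Ctrl (Ctsb, Ctsl and Ctsz), none fell, and 1 rose against LS (Ctsz). Of all tested genes, 10.7% rose and 15.4% fell against Ctrl, and 9.78% rose and 13.6% fell against LS. Ctsz, the carboxypeptidase cathepsin Z, lies on chr2:174427493-174439039 (GRCm38, minus strand). Ctsz was 24.6, 32.7 and 57.3 CPM in the lowest, median and highest AL mouse, 18.4, 19.1, 19.6 and 17.4 CPM in LS1 to LS4, and 16.4, 21 and 26.5 CPM in the lowest, median and highest Ctrl mouse. Every AL mouse lay above every LS mouse, and 7 of 9 lay above every Ctrl mouse. The log2FC was 0.77 against LS (SE 0.158, FDR 0.00248) and 0.68 against Ctrl (SE 0.131, FDR 0.00126). The highest value was that of AL9, and without AL9 the log2FC was 0.72 against LS and 0.53 against Ctrl, with an FDR of 0.000619 and 0.00211, so that the difference from Ctrl no longer reached 0.58. Without the 5 mice of highest Alb it was 0.79 against LS (FDR 0.0511) and 0.80 against Ctrl (FDR 0.0286), and without AL9 as well it was 0.74 (FDR 0.0121) and 0.45 (FDR 0.127).

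Ctsb, the most abundant cysteine cathepsin, was 429, 503 and 529 CPM in the lowest, median and highest AL mouse, 439, 491, 461 and 477 CPM in LS1 to LS4, and 346, 403 and 511 CPM in the lowest, median and highest Ctrl mouse. The groups overlapped, with 4 of 9 AL mice above every Ctrl mouse. Its log2FC was 0.22 against Ctrl (SE 0.066, FDR 0.0178) and 0.14 against LS (FDR 0.214). The difference from Ctrl lost its call in 5 of 15 other settings, with 0.13 in the first run alone (FDR 0.14), 0.48 in the second (FDR 0.316), 0.14 with ComBat-seq (FDR 0.686), 0.14 with a replicate block (FDR 0.244) and 0.23 without AL9 and the 5 mice of highest Alb (FDR 0.114). It also lost it without Ctrl4 (FDR 0.0562).

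The cysteine cathepsins furthest from 0 against Ctrl were Ctsk and Ctsz. Ctsk, a collagen-degrading cathepsin best known from osteoclasts, was 3.79 to 6.67 CPM in AL1 to AL8, 30.8 CPM in AL9, 4.07 to 4.51 CPM in LS and 2.61 to 5.91 CPM in Ctrl mice. Its log2FC of 0.92 against Ctrl (SE 0.353, FDR 0.06) did not pass the test and was 0.28 without AL9 (FDR 0.131). Ctss, the elastin-degrading cathepsin of macrophages and other antigen-presenting cells, was also highest in AL9 (51.6 CPM, with 16.5 to 31.2 CPM in the other AL mice), and its log2FC of 0.48 against Ctrl (FDR 0.0923) and 0.57 against LS (FDR 0.102) did not pass the test. Without AL9 these were 0.19 (FDR 0.351) and 0.47 (FDR 0.0326).

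Macrophages express cathepsins and other lysosomal genes at high levels, so macrophage markers were measured beside them. Of the 14 macrophage markers, 13 were above 0 in every mouse, and Trem2 was at 0 in at least 1 AL and 1 Ctrl mouse. Their summed level was 214 to 879 CPM in AL (median 491), 423 to 495 CPM in LS (median 470) and 273 to 619 CPM in Ctrl mice (median 381), and AL9 was the highest. Against Ctrl, 2 of the 14 markers rose and none fell, where 10.7% of all tested genes rose and 15.4% fell, with a median log2FC of 0.38. Lyz2, the lysozyme of myeloid cells, was among the higher ones (log2FC 0.61, FDR 0.034), and the resident macrophage marker Cd163 was at -0.70 (FDR 0.173). Against LS, none of the 14 passed, with a median log2FC of 0.42. Against LS and Ctrl merged into 1 group, 3 of the 14 rose (Cd68, C1qb and Lyz2) and none fell. Of all tested genes, 16.5% rose and 19.8% fell there. The part of the macrophage markers in the differences of Ctsz, Ctsk and Ctss was not tested.

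Of the 4 aspartic and serine proteases, 2 rose against Ctrl and 1 against LS, where 10.7% and 9.78% of all tested genes rose. Ctsa, a carboxypeptidase that also protects β-galactosidase and neuraminidase in the lysosome, lies on chr2:164832873-164841032 (GRCm38, plus strand). It was 91.8, 100 and 123 CPM in the lowest, median and highest AL mouse, 78.9, 84.1, 87.8 and 78.2 CPM in LS1 to LS4, and 73.6, 81.7 and 89.2 CPM in the lowest, median and highest Ctrl mouse. All 9 AL mice lay above every LS and every Ctrl mouse. The log2FC was 0.34 against Ctrl (SE 0.0511, FDR 0.000257) and 0.27 against LS (SE 0.0611, FDR 0.00455). Without the 5 mice of highest Alb the values were 0.40 (FDR 0.0141) and 0.30 (FDR 0.0596), and without AL9 as well they were 0.32 (FDR 0.046) and 0.27 (FDR 0.0339). With ComBat-seq neither difference passed, at 0.30 against Ctrl (FDR 0.252) and 0.21 against LS (FDR 0.542).

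Ctsd was 1086, 1236 and 1508 CPM in the lowest, median and highest AL mouse, 1087, 1145, 1109 and 1099 CPM in LS1 to LS4, and 681, 964 and 1230 CPM in the lowest, median and highest Ctrl mouse. The Ctrl mice spread widely, the 2 lowest being Ctrl5 and Ctrl6 of the second run at 801 and 681 CPM, and 5 of 9 AL mice were above all of them. The log2FC was 0.31 against Ctrl (SE 0.0799, FDR 0.00912) and 0.23 against LS (FDR 0.0875). The furthest from 0 was Ctse, at 0.44 against Ctrl, with an SE of 0.701. Tpp1, a tripeptidyl peptidase, was at 0.14 against Ctrl (FDR 0.069).

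Cst3 was the 1 cathepsin inhibitor on the list. It was 194, 282 and 388 CPM in the lowest, median and highest AL mouse, 348, 226, 268 and 348 CPM in LS1 to LS4, and 136, 287 and 398 CPM in the lowest, median and highest Ctrl mouse. The groups overlapped over nearly their whole range, with a log2FC of 0.00 against Ctrl (SE 0.154, FDR 0.995) and 0.12 against LS (SE 0.187, FDR 0.692).

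Among the 6 glycosidases, 3 rose against Ctrl (Hexa, Gusb and Glb1) and 2 against LS (Hexa and Gusb). Of all tested genes, 10.7% and 9.78% rose in these comparisons. Hexa, the α subunit of β-hexosaminidase, which degrades gangliosides, was 48, 57.3 and 70.2 CPM in the lowest, median and highest AL mouse, 49.2, 50.3, 42.4 and 45.4 CPM in LS1 to LS4, and 36.9, 43.2 and 49.3 CPM in the lowest, median and highest Ctrl mouse. In 8 of 9 AL mice Hexa was above every LS and every Ctrl mouse, and AL2 was the exception. The log2FC was 0.41 against Ctrl (SE 0.0755, FDR 0.00104) and 0.30 against LS (SE 0.0902, FDR 0.0238), and the FDR against LS was 0.0911 without LS3 and 0.0705 without LS4. Gusb, the β-glucuronidase, was at 0.37 against Ctrl (FDR 0.00483) and 0.40 against LS (FDR 0.00903).

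Gaa, the acid α-glucosidase that degrades glycogen, had the highest count level of the glycosidases. It was 107, 121 and 173 CPM in the lowest, median and highest AL mouse, 126, 133, 142 and 109 CPM in LS1 to LS4, and 77.1, 91.9 and 139 CPM in the lowest, median and highest Ctrl mouse. AL mice overlapped with both groups, with a log2FC of 0.29 against Ctrl (SE 0.127, FDR 0.105) and -0.04 against LS (FDR 0.881). Gla, the α-galactosidase A that is deficient in Fabry disease, was at -0.08 against Ctrl (FDR 0.622).

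In the group of lipid-handling genes and progranulin, the cholesterol transporters moved apart. Npc2, the soluble protein that binds cholesterol in the lysosome, rose with a log2FC of 0.44 against Ctrl (SE 0.0882, FDR 0.00183), while Npc1, the membrane protein that takes cholesterol from it, fell by 0.42 on the log2 scale (SE 0.119, FDR 0.0154). Npc2 was 57 to 88.8 CPM in AL and 40 to 57.5 CPM in Ctrl mice, and Npc1 was 30.8 to 58.2 CPM in AL and 47.7 to 68.5 CPM in Ctrl mice. Against LS the values were 0.30 (FDR 0.0458) for Npc2 and -0.22 (FDR 0.272) for Npc1. Grn, which encodes progranulin, was at 0.43 against Ctrl (FDR 0.00899) and 0.41 against LS (FDR 0.0334).

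Psap was 894, 1120 and 1179 CPM in the lowest, median and highest AL mouse, 976, 1066, 1082 and 1058 CPM in LS1 to LS4, and 915, 961 and 1081 CPM in the lowest, median and highest Ctrl mouse. The AL mice overlapped with both other groups, and the lowest of all 20 values was that of AL9. Its log2FC was 0.10 against Ctrl (SE 0.0472, FDR 0.142) and 0.09 against LS (FDR 0.277). Lipa, the lysosomal acid lipase, was at 0.02 against Ctrl (FDR 0.903).

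Of the 4 V-ATPase members, Atp6v0d1 alone passed the test, with a log2FC of 0.34 against Ctrl (SE 0.0719, FDR 0.00266) and 0.32 against LS (SE 0.0841, FDR 0.0107). Of all tested genes, 10.7% and 9.78% rose in these comparisons. Atp6v0d1 is the d subunit of the membrane domain in most tissues. Atp6ap1, an accessory subunit with the highest level of these 4 genes, was 102, 130 and 147 CPM in the lowest, median and highest AL mouse, 132, 145, 143 and 130 CPM in LS1 to LS4, and 110, 121 and 134 CPM in the lowest, median and highest Ctrl mouse. The 3 groups overlapped, with a log2FC of 0.04 against Ctrl (FDR 0.667) and -0.05 against LS (FDR 0.639). Atp6v1a, the catalytic subunit, was at -0.10 against Ctrl (FDR 0.437) and -0.22 against LS (FDR 0.156).

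Tfeb was 12.9, 16.2 and 31.3 CPM in the lowest, median and highest AL mouse, 11.7, 12.6, 14.7 and 12.3 CPM in LS1 to LS4, and 12.8, 13.4 and 19.8 CPM in the lowest, median and highest Ctrl mouse. AL9 was far above the rest, and 7 of 9 AL mice were above every LS mouse. The log2FC was 0.33 against Ctrl (SE 0.0927, FDR 0.0132) and 0.31 against LS (SE 0.111, FDR 0.0499). The difference from LS kept an FDR under 0.05 in 5 of the 20 fits that left out 1 mouse, with a highest FDR of 0.153 without LS1. The difference from Ctrl kept one in 9 of 15 other settings. It was 0.28 with ComBat-seq (FDR 0.302), 0.24 with no run term (FDR 0.325) and 0.19 with a replicate block (FDR 0.215). Without the 5 mice of highest Alb it was 0.45 (FDR 0.0605), and without AL9 as well 0.24 (FDR 0.289). Tfe3 was at 0.20 against Ctrl (FDR 0.0964) and 0.26 against LS (FDR 0.0719). These are transcript levels, and the activity of both factors is controlled largely by where the proteins sit in the cell.

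**Figure D3:**
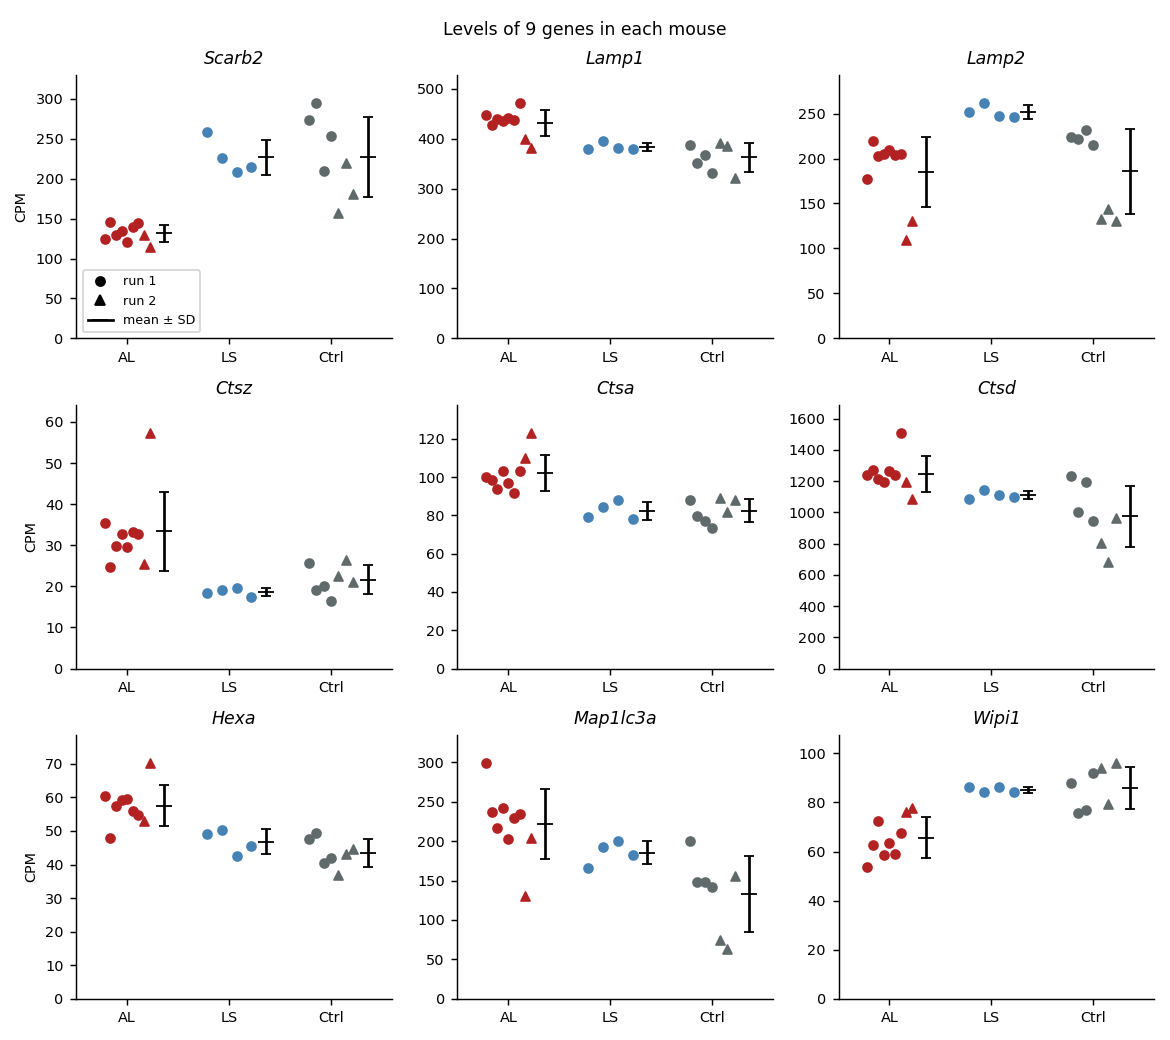
CPM of 9 genes in each mouse, by group, with circles for the first and triangles for the second sequencing run and the mean ± SD of each group in black. Every AL mouse lies below every LS and Ctrl mouse for Scarb2 and above them for Ctsa, while Lamp2, Ctsd and Map1lc3a are lower in several mice of the second run.

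Of the 12 autophagy genes, 3 rose and 2 fell against Ctrl, where 10.7% of all tested genes rose and 15.4% fell. In AL against LS, 1 rose and 1 fell, where 9.78% of all tested genes rose and 13.6% fell. The rises against Ctrl were all of ubiquitin-like proteins that are attached to autophagosome membranes: Map1lc3a, Map1lc3b (log2FC 0.18, FDR 0.0147) and Gabarap (log2FC 0.31, FDR 0.00246). Against LS, Map1lc3b was at 0.08 (FDR 0.38) and Gabarap at 0.10 (FDR 0.361), and neither passed the test. Map1lc3a was 131, 229 and 299 CPM in the lowest, median and highest AL mouse, 166, 192, 200 and 183 CPM in LS1 to LS4, and 62.6, 148 and 200 CPM in the lowest, median and highest Ctrl mouse. In 8 of 9 AL mice Map1lc3a was above every LS and every Ctrl mouse, the exception being AL8 of the second run. The log2FC was 0.63 against Ctrl (SE 0.155, FDR 0.00605), and 0.55 (FDR 0.0178) without AL9, which is under the threshold of 0.58. Against LS it was 0.38 (SE 0.185, FDR 0.142). The fourth gene of this family on the list, Gabarapl1, was at 0.21 against Ctrl (FDR 0.147).

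Wipi1, a phosphoinositide-binding protein of the forming autophagosome, fell. Its level was 53.6, 63.4 and 77.9 CPM in the lowest, median and highest AL mouse, 86.2, 84.1, 86.3 and 84.3 CPM in LS1 to LS4, and 75.8, 87.8 and 96 CPM in the lowest, median and highest Ctrl mouse. All 9 AL mice lay below every LS mouse and 7 of 9 below every Ctrl mouse, the others being AL8 and AL9. The log2FC was -0.43 against LS (SE 0.0791, FDR 0.00135) and -0.35 against Ctrl (SE 0.0672, FDR 0.00121). Without AL9 and the 5 mice of highest Alb, it was -0.43 against LS (FDR 0.0224) and -0.26 against Ctrl (FDR 0.189).

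Sqstm1, the cargo receptor p62 of selective autophagy, was 272, 332 and 425 CPM in the lowest, median and highest AL mouse, 276, 289, 239 and 253 CPM in LS1 to LS4, and 278, 313 and 426 CPM in the lowest, median and highest Ctrl mouse. It was above every LS mouse in 8 of 9 AL mice and above every Ctrl mouse in none. The log2FC was 0.27 against LS (SE 0.0788, FDR 0.02), with an FDR of 0.0838 without LS3 and 0.0745 without LS4, and 0.12 against Ctrl (FDR 0.201). Atg12, a ubiquitin-like conjugation factor, had a log2FC of -0.21 against Ctrl (FDR 0.0327) and -0.21 against LS (FDR 0.0714). The remaining genes of autophagosome formation, Becn1, Ulk1, Atg5, Atg7 and Atg9a, lay between -0.22 and 0.10 against Ctrl, and none of the 5 passed the test in either comparison.

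Many lysosomal genes carry the letters CACGTG near their start, the core of the element that TFEB and related factors bind. Of the 49 genes, 40 had a promoter in RefSeq (build GRCm38.p6), and CACGTG, which reads the same on both strands, stood in the 250 bases before the start of 13 of them (32.5%). Of all 27025 genes with a promoter, 1854 held it (6.86%). The longer TCACGTGA, which contains CACGTG, was found in 5 of the 40 promoters (12.5%) and in 0.907% of all. Of the 17 genes higher in AL than in Ctrl, 15 had a promoter and 6 held CACGTG (Ctsl, Ctsa, Ctsd, Glb1, Lamp1 and Mcoln1). Of the 5 genes lower in AL, 3 had a promoter and 0 held it, and of the 27 other genes 22 had a promoter and 7 held it. Stretches of 70 bases are shown for 5 genes that rose and carry the letters, and for Scarb2 and Ctsz, the genes with the largest fall and the largest rise among those that passed the test, which do not carry them in this window. Each is read 5′ to 3′ on the strand of the gene, with CACGTG in capitals. Starts are those of RefSeq, which for Lamp1 and Ctsz equal the GENCODE gene start and lie further inside the GENCODE gene by 2 bases for Glb1, 62 for Mcoln1, 211 for Ctsd, 900 for Ctsa and 1176 for Scarb2.
Ctsa (chr2:164833703-164833772, plus strand, ending at the base before a RefSeq start): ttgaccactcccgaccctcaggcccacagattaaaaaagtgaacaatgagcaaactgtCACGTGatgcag
Lamp1 (chr8:13159091-13159160, plus strand, ending at the base before the RefSeq start): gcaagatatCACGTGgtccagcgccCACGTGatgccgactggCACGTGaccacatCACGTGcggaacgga
Mcoln1 (chr8:3500429-3500498, plus strand, from 90 to 21 bases before the RefSeq start): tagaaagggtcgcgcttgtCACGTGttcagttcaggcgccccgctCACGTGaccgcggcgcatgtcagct
Ctsd (chr7:142387898-142387967, minus strand, from 140 to 71 bases before the RefSeq start): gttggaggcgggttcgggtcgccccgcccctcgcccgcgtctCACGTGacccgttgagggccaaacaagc
Glb1 (chr9:114401008-114401077, plus strand, ending at the base before the RefSeq start): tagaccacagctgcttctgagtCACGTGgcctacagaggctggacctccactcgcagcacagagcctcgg
Scarb2 (chr5:92505658-92505727, minus strand, ending at the base before the RefSeq start): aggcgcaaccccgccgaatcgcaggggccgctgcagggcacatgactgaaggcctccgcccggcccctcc
Ctsz (chr2:174439040-174439109, minus strand, ending at the base before the RefSeq start): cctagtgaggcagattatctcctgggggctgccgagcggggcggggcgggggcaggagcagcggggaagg

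Lamp1 held 4 copies within this stretch and Mcoln1 held 2, the other three genes 1 each. These matches describe letters in a window, and binding of a factor was not measured.

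LS and Ctrl hearts, which differ by the λS gene without deposits, gave no call among the 49 genes. None had an FDR under 0.05 in edgeR's quasi-likelihood test (lowest FDR 0.794), against 0.0207% of all tested genes called at an absolute log2FC of at least 0.58. An unadjusted p under 0.05 was found for 3 of the 49 genes, Ctsh, Lamp2 and Gabarap, which were 0.29, 0.17 and 0.21 higher in LS on the log2 scale, while 5.94% of all tested genes were under that value. DESeq2 also gave 0 of the 49 genes at an adjusted p under 0.05, and 0.172% of all genes it tested. The median log2FC was 0.052 over the 49 genes. The 4 LS mice were all of the first run, and the standard errors of the log2FC were 0.0611 for Psap and 0.87 for Ctse, the lowest and the highest of the 49.

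Against LS and Ctrl merged into 1 control group, which reuses the mice of the preceding comparisons, 22 of the 49 genes were higher in AL at an FDR under 0.05 (44.9%, against 16.5% of all tested genes) and 5 were lower (10.2%, against 19.8%). The 22 include Ctsk, at 0.81 (FDR 0.047) and 0.31 without AL9 (FDR 0.036), and Ctss, at 0.51 (FDR 0.0282) and 0.31 without AL9 (FDR 0.0624). Without AL9, 23 were higher and 6 lower, where 35.8% of all tested genes passed in either direction. The log2FC was 0.71 for Ctsz (FDR 0.000101), 0.54 for Map1lc3a (FDR 0.00476) and -0.79 for Scarb2 (FDR 4.95e-06). None of the 49 reached the absolute log2FC of 1 used for this comparison, against 4.88% of all tested genes, while 27 of the 49 were at an FDR under 0.05 at any fold (36.2% of all tested genes) and 33 at an unadjusted p under 0.05 (45.6%) in edgeR. DESeq2 also called 0 at this fold.

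The AL and Ctrl mice were spread over both sequencing runs, so their difference was computed in each. In the first run, with 7 AL and 4 Ctrl mice, the log2FC was -0.94 for Scarb2 (SE 0.0889, FDR 5.08e-05), 0.62 for Ctsz (SE 0.107, FDR 0.00237), 0.57 for Map1lc3a (SE 0.106, FDR 0.00293) and 0.30 for Ctsa (SE 0.0561, FDR 0.00293). The 2 AL and 3 Ctrl mice of the other run gave values of -0.55 (SE 0.194) for Scarb2, 0.89 (SE 0.335) for Ctsz, 0.83 (SE 0.409) for Map1lc3a and 0.49 (SE 0.148) for Ctsa, and 0 of the 49 genes had an FDR under 0.05 in edgeR, where 0.128% of all genes did. These 4 genes, which had an FDR under 0.05 in the fit that pools both runs, had the same direction in both. Several others of the 49 did not, such as Cst3 (-0.19 in the first run and 0.47 in the second) and Atp6v1a (-0.21 and 0.20). A test of the difference between the runs gave 0 of the 49 genes at an FDR under 0.05 (lowest 0.0923, for Ctsk) and 6 at an unadjusted p under 0.05, with 0.701% of all 13835 genes at that FDR. For Ctsk, the AL minus Ctrl log2FC was 2.29 higher in the second run, which holds AL9, than in the first.

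**Figure D4:**
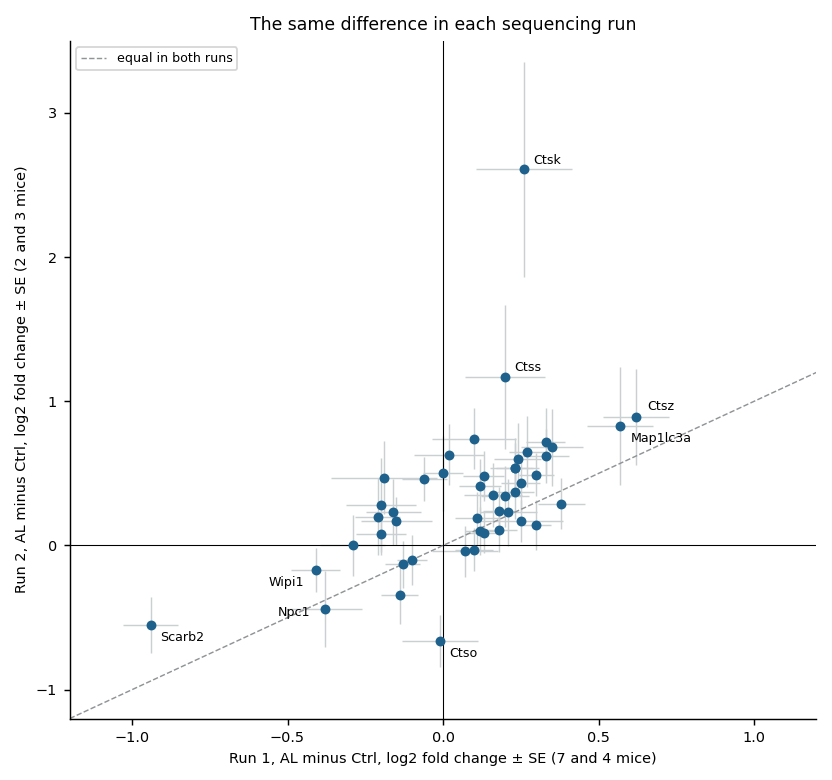
AL minus Ctrl log2 fold change of the genes in the first run (7 and 4 mice, x axis) and in the second run (2 and 3 mice, y axis), with standard errors as grey bars and a dashed line where both are equal. Ctsw and Ctse were too low to be tested in the second run and are not drawn. Scarb2 is lowest on the x axis in the first run (-0.94) and negative in the second (-0.55), and Ctsk (2.61) and Ctss (1.17) are highest in the second run.

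The differences were also computed without the mice that stood apart. Without AL9, the log2FC against Ctrl of the 16 genes described by mouse moved most for Ctsz (0.68 to 0.53) and Gaa (0.29 to 0.17). The 5 mice of highest Alb include 3 of the 7 Ctrl and 2 of the 4 LS mice. Without these 5 mice, the log2FC against Ctrl was 0.22 for Lamp1 (FDR 0.119), 0.76 for Map1lc3a (FDR 0.0577) and -0.22 for Wipi1 (FDR 0.146). It was 0.45 for Tfeb (FDR 0.0605) and -0.13 for Lamp2 (FDR 0.33). The differences of Scarb2, Ctsz, Ctsa, Ctsd, Ctsb and Hexa kept an FDR under 0.05. Against LS, only Scarb2 (-0.66, FDR 0.022) and Wipi1 (-0.41, FDR 0.0366) of these 16 genes kept one. The summed level of the 20 liver markers was 4.46 to 52.7 CPM in AL, 11.2 to 266 CPM in LS and 3.25 to 393 CPM in Ctrl mice. All 20 were lower in AL than in Ctrl at an FDR under 0.05, and with their level as a covariate 18 of the 49 genes differed between AL and Ctrl at that FDR (17.1% of all tested genes), 15 of them among the 22 that passed without it. Between AL and LS 10 did so (17.8% of all tested genes), 8 of them among the 14.

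**Figure D5:**
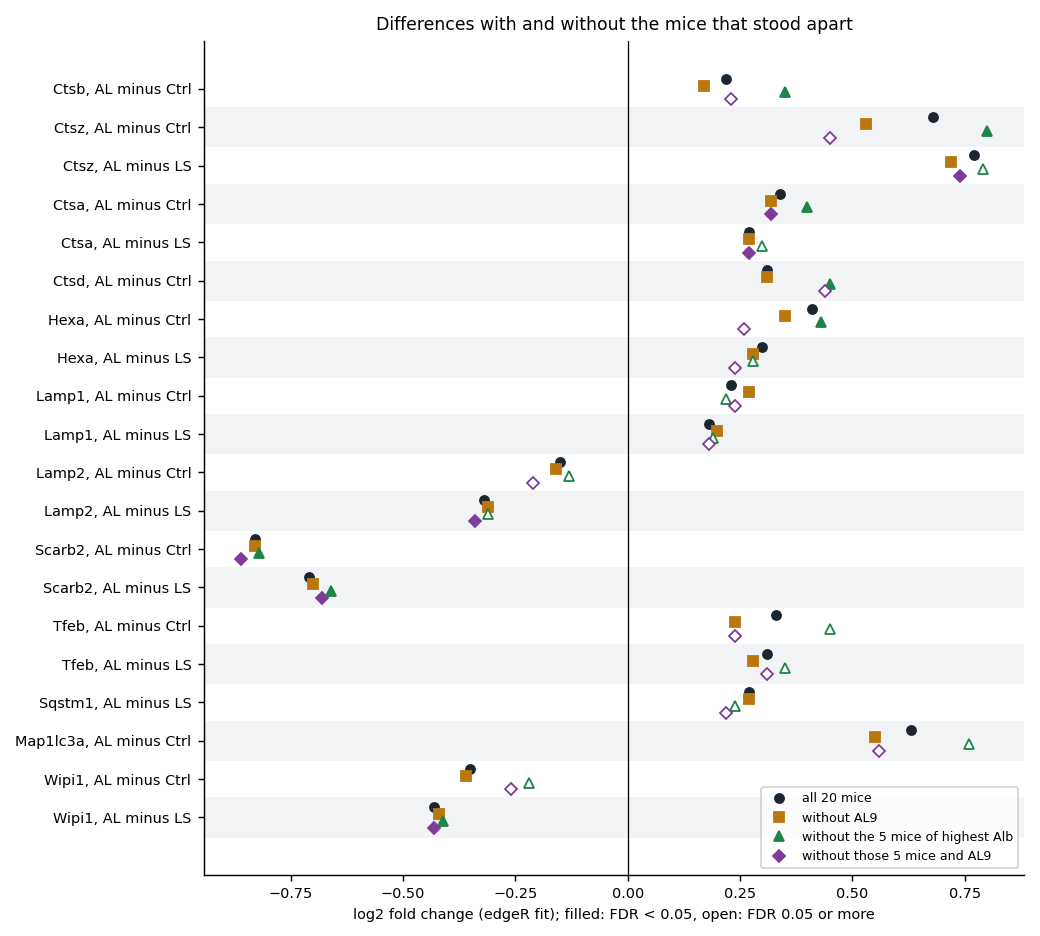
Log2 fold change of each difference of the genes described by mouse that had an FDR under 0.05 in all 20 mice, with all mice (circles), without AL9 (squares), without the 5 mice of highest Alb (triangles) and without those 5 and AL9 (diamonds). Filled symbols have an FDR under 0.05. The 4 symbols of Scarb2 against Ctrl stay between -0.86 and -0.82 and are all filled.

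A further 104 symbols of lysosomal and autophagy genes were examined beside the 49, of which 103 had a row and 100 were tested. Against Ctrl, 16 rose and 16 fell at an FDR under 0.05 (32% in all, against 26.2% of all tested genes), with a median log2FC of 0.01, where 44.9% of the 49 genes did so. The larger threshold was passed by 5 that rose and 2 that fell of the 100, where 7.81% of all tested genes passed it in either direction. Against LS, 11 rose and 14 fell (25% in all, against 23.4% of all tested genes). There, 7 and 2 passed the larger threshold, where 8.9% of all tested genes passed it in either direction. Between LS and Ctrl, 0 passed in edgeR.

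By role, the other genes gave the following counts against Ctrl at an FDR under 0.05, where 10.7% of all tested genes rose and 15.4% fell. Of the 14 other V-ATPase subunits, 7 rose and none fell, and of the 33 other autophagy genes, 1 rose and 7 fell. Of the 10 relatives of TFEB and its regulators at the lysosome, 4 fell and none rose. The other hydrolases went both ways, with 5 rises and 3 falls among 25. Of the 5 sorting genes, 1 rose and 2 fell. Against LS, where 9.78% of all tested genes rose and 13.6% fell, the V-ATPase subunits gave 3 rises and no fall. The other autophagy genes gave 8 falls there, the relatives of TFEB and its regulators 2 and the sorting genes 2, all without a rise. The other hydrolases gave 6 rises and 2 falls against LS.

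Atp6v0d2, the V-ATPase d subunit of osteoclasts and macrophages, rose from at most 0.15 CPM in Ctrl and 0.122 CPM in LS mice to 0.221 to 3.61 CPM in AL mice. Every AL mouse was above every LS and Ctrl mouse, with a log2FC of 3.35 against Ctrl (SE 0.558, FDR 0.000476), although the levels of LS and Ctrl mice were near the floor of detection, so that the fold depends on the prior count. Tcirg1, the a3 subunit of the same complexes, was 9.03 to 24.9 CPM in AL, 5.27 to 5.76 CPM in LS and 6.75 to 11.3 CPM in Ctrl mice. Its log2FC was 0.83 against Ctrl (SE 0.148, FDR 0.000799) and 1.22 against LS (SE 0.182, FDR 0.000465).

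Galns, a sulfatase that degrades keratan sulfate, was 4.48 to 10.5 CPM in AL mice, above the 2.66 to 4.11 CPM of all LS and Ctrl mice, with a log2FC of 0.85 against Ctrl (FDR 0.00045) and 0.71 against LS (FDR 0.00667). Pla2g15, the lysosomal phospholipase A2, was at 0.61 against Ctrl (FDR 0.000963) and 0.58 against LS (FDR 0.00507). Laptm5, a lysosomal membrane protein of leukocytes, was at 0.54 against Ctrl (FDR 0.0351) and 0.65 against LS (FDR 0.0404).

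On the falling side, Rragd, a GTPase that helps recruit mTORC1 to the lysosome, was 49.7 to 126 CPM in AL, 139 to 194 CPM in LS and 122 to 162 CPM in Ctrl mice, with a log2FC of -0.59 against Ctrl (FDR 0.00201) and -0.61 against LS (FDR 0.00417). Manba, the β-mannosidase, was at -0.67 against Ctrl (FDR 0.0222) and -0.67 against LS (FDR 0.0533). Sort1, the sorting receptor sortilin, was at -0.60 against LS (FDR 0.0224) and -0.50 against Ctrl (FDR 0.0231). Acp5 and Dpp7 also passed the larger threshold in at least 1 comparison, both upward.

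The markers of other cell types were read in the same fit. Of the 8 cardiomyocyte markers, 2 fell against Ctrl and 2 against LS, where 15.4% and 13.6% of all tested genes fell. Their median log2FC was -0.05 and -0.18. The 5 fibroblast markers summed to 275 to 1265 CPM in AL, 795 to 954 CPM in LS and 391 to 887 CPM in Ctrl mice, and none passed the test. The 4 endothelial markers, at 325 to 539 CPM in AL and 358 to 547 CPM in Ctrl mice, gave none either. Neutrophil markers (4 tested of 5), T and NK cell markers (7) and mast cell markers (4) reached at most 30.5, 3.83 and 17.1 CPM in summed level, with none past the test against Ctrl or LS. Against merged controls, 2 of the 4 mast cell markers rose (Tpsb2 and Cpa3), where 16.5% of all tested genes rose, and no neutrophil or T and NK cell marker passed. The part of these cell types in the differences of the 49 genes was not tested.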

How the data were processed

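RNA-seq of the heart apex of 20 mice (9 AL, 4 LS, 7 Ctrl) was analysed. The table deposited by the authors holds estimated counts of 25308 genes from Salmon, made from stranded reads that STAR had aligned to GRCm38 (nf-core workflow), with no normalization. Of these, 14.2% were not whole and all were rounded. The authors adjusted for the 2 runs with ComBat, and here run was a term of the model instead.

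Genes were filtered with filterByExpr (minimum count 10), scaled by TMM and tested with glmQLFit and glmQLFTest of edgeR 4.0.16 in R 4.3.3, with Benjamini-Hochberg adjustment over 14477 genes. All tests were two-sided. A gene was called when its FDR was under 0.05 and its log2FC was 0.58 or more in either direction (1 or more for merged controls). The floor of 3 counts covers counting error only. The labels do not say how mice with the same number in different groups are related, and p-values measure the spread between mice. All per-sample columns were used (0 left out), and correlations of log2(CPM + 1) between mice lay between 0.964 and 0.996.

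Alternatives were no filter, 10 counts in every mouse, RLE factors, the likelihood ratio test, DESeq2 1.42.0, ComBat-seq (sva 3.50.0), no run term, each run alone, a replicate block, Xist or liver genes as a covariate, only the groups compared, and leaving out each mouse or the 5 mice of highest Alb. Leaving out these 5 mice and AL9 was added after seeing the data. The tests were tested on simulated counts.

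Values by mouse are given for genes past the calling threshold, the 5 of lowest FDR in each comparison of AL and the highest of each role, with the genes furthest from 0 in each role beside them. Further genes are given to describe their role. The genes, lists and tests were chosen with earlier results of these data known. Gene positions and exon lengths come from GENCODE M21 and promoters from RefSeq, 250 bases before the start. Figures were drawn with matplotlib 3.10.9.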

Additional observations from a re-analysis of the deposited data

Results flagged for a closer look

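Of 48 groups of values examined (16 genes in 3 groups), 5 held a mouse whose distance from its neighbour was large for the range of its group, and chance alone gives about 1 in 20. AL9 was that mouse in 3 of them. Its CPM was 57.3 for Ctsz, where the nearest AL mouse had 35.5, 173 for Gaa, where the nearest had 127, and 31.3 for Tfeb, where the nearest had 20.5. Ctsd reached 1508 CPM in AL7 and 1270 CPM in the nearest AL mouse. Lamp1 reached 396 CPM in LS2 and 382 CPM in the nearest LS mouse.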

How the results depend on the processing

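The 3 genes called between AL and Ctrl became 0 in the second run alone, 1 to 4 when 1 mouse was left out (1 without AL9), and 1 without the 5 mice of highest Alb and AL9. The 2 called between AL and LS became 1 without the 5 mice of highest Alb and was 2 in each of the 20 fits that left out 1 mouse. Against merged controls, the 0 became 1 with liver genes as a covariate and 3 at an absolute log2FC of at least 0.58. The 22 genes at an FDR under 0.05 between AL and Ctrl stood beside 26.2% of all tested genes. They became 2 with ComBat-seq (beside 5.35% of all tested genes) and 0 in the second run alone (beside 0.128%). They became 10 without the 5 mice of highest Alb (beside 6.63%) and 2 without them and AL9 (beside 1.71%). With a replicate block 13 passed, of which 12 were among the 22, while 14.9% of all tested genes passed there. The 14 at that FDR between AL and LS stood beside 23.4% of all tested genes. They became 8 with no run term (beside 16.4% of all tested genes) and 22 in the first run alone (beside 32.5%). They became 2 with ComBat-seq (beside 4.42%), 2 without the 5 mice of highest Alb (beside 5.23%) and 7 without them and AL9 (beside 11.2%). With 1 mouse left out they were 6 to 19 (9 without LS1, 9 without LS2, 8 without LS3 and 6 without LS4). Fewer mice enter the fits of 1 run or without mice, and the cause of the other changes was not tested. For mice with the same number in different groups, deviations from the group and run means correlated at -0.228 to 0.293 over 15 pairs (median 0.0389). For mice with other numbers they correlated at -0.328 to 0.391 over 112 pairs (median -0.00285). Such correlations cannot show whether mice with the same number are related. LS against Ctrl gave 0 genes in every setting. Of 691 values of the 20 differences of single genes under alternatives, 570 stayed on the same side of the FDR threshold with the same direction, 121 lost it and 0 changed direction. These 20 differences were taken because they had an FDR under 0.05 in the main fit. Most alternatives reuse most of its mice, so this tally is not separate support for them. Counts of the second run, at 7867642 to 11794615 per mouse, limit what that run alone can show.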
